A study of Mus musculus with 2 samples.

Results

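The messenger RNAs of 9 nonsense-mediated decay factors, Upf1, Upf2, Upf3a, Upf3b, Smg1, Smg5, Smg6, Smg8 and Smg9, were measured in mouse embryonic stem cells labelled as Ago1 knockouts. They were taken by symbol from the 55240 genes of the count table, out of 55421, whose Ensembl identifier was found in GENCODE release M21. Each of the 9 symbols matched 1 gene. The cells were E14 embryonic stem cells of 129/Ola background with the genotype Ago1 knockout, grown on gelatin in 15% serum with 100 U/ml of leukaemia inhibitory factor. Both samples, called KO1 and KO2, carry this genotype and had the same culture. Whether the samples are separate clones or separate cultures is not in the labels, so differences between them may be technical, and cells that keep Ago1 were not analysed here. Polyadenylated RNA was sequenced to 57048330 counts in KO1 and 54408708 in KO2.

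Nonsense-mediated decay removes transcripts on which translation ends too early, and it also sets the level of many normal transcripts. When a ribosome stops upstream of an exon junction complex, the RNA helicase UPF1 meets UPF2 and UPF3 on that complex, and the kinase SMG1 phosphorylates UPF1. Phosphorylated UPF1 recruits SMG6, which cuts the transcript, and SMG5, which helps to bring decapping and deadenylating enzymes. Several of these factors are encoded by transcripts that are themselves substrates of the pathway. In mice, embryos without Upf1, Upf2, Smg1 or Smg6 die early, and embryonic stem cells without Smg6 can be kept in culture but differentiate poorly.

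Sequences of 5 members are shown first because the difference between the libraries followed base composition. Each line is a stretch of 90 coding bases inside 1 exon, the one whose GC content was nearest to that of the whole coding sequence, from the GENCODE M21 transcripts on GRCm38, 5′ to 3′, with G and C in capitals. Smg9 and Upf1 had the most GC-rich coding sequences of the 9, and Upf3b and Upf2 the most AT-rich. Upf3a is shown beside its paralogue Upf3b.
Smg9: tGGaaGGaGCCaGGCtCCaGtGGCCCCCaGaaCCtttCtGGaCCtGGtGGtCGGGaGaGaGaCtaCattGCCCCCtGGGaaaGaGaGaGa
Upf1: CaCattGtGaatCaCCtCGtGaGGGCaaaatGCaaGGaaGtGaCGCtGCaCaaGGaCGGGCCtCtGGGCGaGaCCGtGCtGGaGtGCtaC
Upf3a: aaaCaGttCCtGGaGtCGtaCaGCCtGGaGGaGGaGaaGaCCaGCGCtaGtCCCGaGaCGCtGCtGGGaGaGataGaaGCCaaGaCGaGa
Upf3b: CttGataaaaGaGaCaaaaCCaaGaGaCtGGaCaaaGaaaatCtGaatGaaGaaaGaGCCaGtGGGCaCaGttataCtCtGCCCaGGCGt
Upf2: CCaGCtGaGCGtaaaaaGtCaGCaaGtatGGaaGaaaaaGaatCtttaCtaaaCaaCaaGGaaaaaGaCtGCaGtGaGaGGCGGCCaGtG
The Smg9 stretch (chr7:24403455-24403544, plus strand, codons 20 to 49) holds 54 G or C in 90 bases, and the Upf1 stretch (chr8:70342087-70342176, minus strand, codons 150 to 179) holds 52. The Upf3a stretch (chr8:13792111-13792200, plus strand, codons 176 to 205) holds 51. The Upf3b stretch (chrX:37096893-37096982, minus strand, codons 282 to 311) and the Upf2 stretch (chr2:5957492-5957581, plus strand, codons 2 to 31) hold 39 each. Over the whole coding sequence, GC content was 59.6% in Smg9, 57.7% in Upf1, 56.3% in Upf3a, 43.5% in Upf2 and 42.8% in Upf3b. The codons of the Upf3 paralogues thus differ in composition, and no coding stretch of at least 100 bases at 90% identity or more was shared between any of the 9 members.

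The genes lie on 6 chromosomes of GRCm38. Upf1 (ENSMUSG00000058301) spans chr8:70331525-70353278 on the minus strand, and Upf3a (ENSMUSG00000038398) chr8:13785615-13799193 on the plus strand. Upf2 (ENSMUSG00000043241) spans chr2:5951469-6056703 on the plus strand, and Upf3b (ENSMUSG00000036572) chrX:37091678-37110322 on the minus strand. Smg1 (ENSMUSG00000030655) spans chr7:118131308-118243670 on the minus strand, and Smg9 (ENSMUSG00000002210) chr7:24399619-24422778 on the plus strand. Smg6 (ENSMUSG00000038290) spans chr11:74925823-75164448 on the plus strand, and Smg8 (ENSMUSG00000020495) chr11:87077732-87086774 on the minus strand. Smg5 (ENSMUSG00000001415) spans chr3:88336260-88362338 on the plus strand.

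Ago1, the target of the knockout, was at 26.4 CPM (counts per 1000000) in KO1, from 1497 counts, and at 8.27 CPM in KO2, from 452 counts. The library labelled KO1 held 3.18 times as much as KO2 (95% interval 2.87 to 3.55). The position of these reads along the transcript is not in a table of genes. All 5 stem cell markers (Pou5f1, Nanog, Sox2, Zfp42 and Esrrb) were above 1 CPM in both libraries, with summed levels of 3075 CPM in KO1 and 3512 CPM in KO2. Of 6 fibroblast markers 1 was, namely Thy1, with sums of 21.2 and 25.3 CPM over the list, and Lum and Postn were at 0 counts in both. All 6 skeletal muscle markers were above 1 CPM in KO1 (1.21 to 2.08 CPM) and 0 of 6 in KO2 (0 to 0.439 CPM), with sums of 10.2 and 1.48 CPM. The part of these other cell types in the results below was not tested.

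All 9 decay factors were detected, that is, above 1 CPM in both libraries, as were 55.3% of the 21976 protein-coding genes in the table. To compare genes, counts were divided by the length of the merged exons and scaled to transcripts per 1000000 (TPM). The median level of the 9 factors was 58.1 ± 6.72 TPM (SD, n = 2), beside 20.1 TPM for the 12148 protein-coding genes detected. On this scale 7 of the 9 lay above that median. Smg5 ranked highest, above 84.6% of detected protein-coding genes, and Smg9 lowest, above 41.7%. In bulk RNA, fewer cells with a transcript and less of it per cell cannot be told apart. Below, the longest protein-coding transcript of a gene means the protein-coding transcript with the longest coding sequence, which need not be the longest in total.

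**Figure D1:**
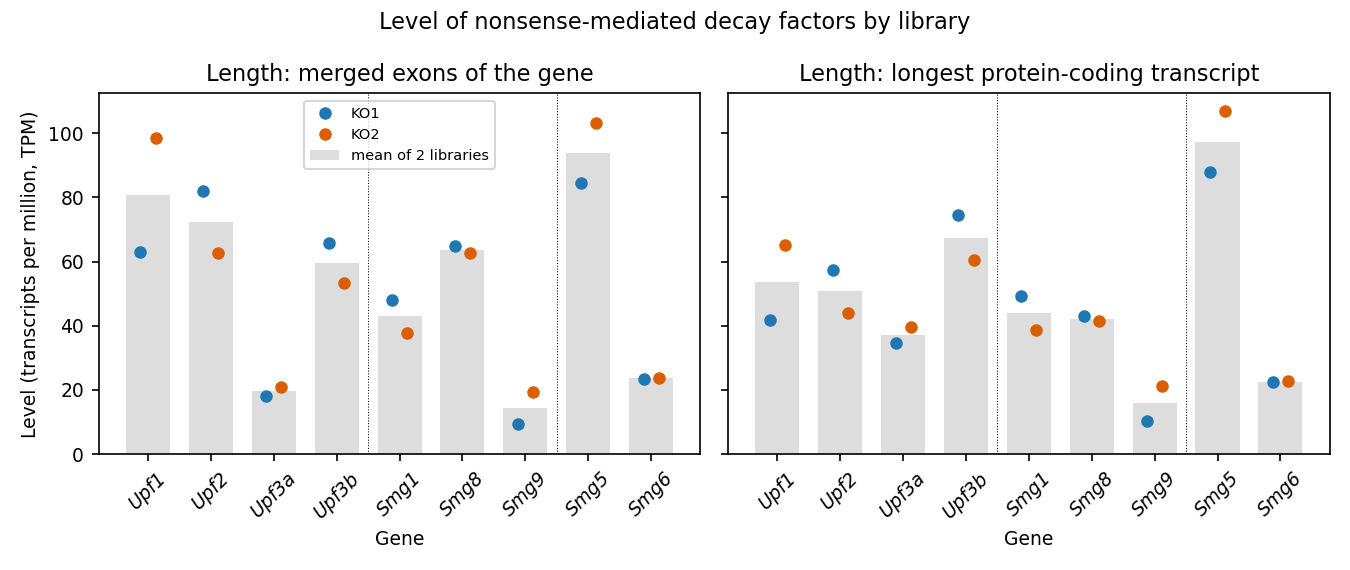
Level of each decay factor in TPM, with grey bars for the mean of 2 libraries and points for KO1 and KO2. Dotted lines part the surveillance factors, the kinase complex and the effectors. The panels divide by merged exons (left) or by the protein-coding transcript with the longest coding sequence (right). Smg5 is highest and Smg9 lowest in both panels, and Upf3a rises from 19.6 to 37.0 TPM between them.

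Among the surveillance factors, Upf1, the helicase on which the pathway turns, was at 62.9 TPM in KO1 and 98.5 TPM in KO2, a mean of 80.7 ± 25.2 TPM (SD, n = 2). Its partner Upf2, the scaffold that joins UPF1 to UPF3, was at 81.9 TPM in KO1 and 62.5 TPM in KO2, a mean of 72.2 ± 13.7 TPM. Upf1 was thus high in KO2 and Upf2 high in KO1, and their ranges overlapped. Upf1 stood at 0.768 times the level of Upf2 in KO1 and 1.58 times in KO2, so the libraries gave the pair in opposite order. Scaled by the longest protein-coding transcript of each gene, Upf1 stood lower, at 53.5 ± 16.7 TPM. Its own length is 4618 bases on both scales, so it moved only through the scaling over all genes.

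The UPF3 proteins link UPF2 to the exon junction complex. Upf3b, the X-linked and in most tissues more active form, was at 65.7 TPM in KO1 and 53.4 TPM in KO2. Upf3a, its paralogue on chromosome 8, was at 18.2 TPM in KO1 and 20.9 TPM in KO2. Upf3b was above Upf3a in both libraries without overlap, and made up 78.3% of their sum in KO1 and 71.9% in KO2. The merged exons of Upf3a (5865 bases) include 2 annotated transcripts with retained introns and are far longer than its coding transcript (2057 bases). Divided by the longest protein-coding transcript instead, Upf3a stood at 37.0 ± 3.49 TPM, and the share of Upf3b was 68.3% in KO1 and 60.5% in KO2. The order of the paralogues held on both lengths, and the mean ratio fell from 3.08 to 1.84.

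Smg1 encodes the kinase that phosphorylates UPF1, a large relative of ATM and mTOR. It had the most reads of the 9 factors, with 18788 counts in KO1 and 14618 in KO2, and also the longest merged exons, at 23984 bases. Per length it was at 48.1 TPM in KO1 and 37.9 TPM in KO2. SMG8 and SMG9 form a complex with SMG1 and restrain its kinase activity. Smg8 was at 64.7 TPM in KO1 and 62.6 TPM in KO2, the nearest agreement in CPM of any member, at 59.5 ± 0.233 CPM (SD, n = 2). Its level was lower with the longest protein-coding transcript as length, at 42.3 ± 1.05 TPM. Its own length is 3218 bases on both scales, so this too came only through the scaling over all genes.

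Smg9 had the fewest reads, with 571 counts in KO1 and 1157 in KO2. Its level was 10.1 CPM in the former (exact 95% Poisson interval 9.24 to 10.9) and 21.2 CPM in the latter (20.0 to 22.4), so counting error is small beside the gap between the libraries. Per length Smg9 was at 9.47 TPM in KO1 and 19.4 TPM in KO2, below Smg1 and Smg8 in both libraries without overlap. The transcripts of the kinase complex were therefore unequal. Smg8 stood at 6.83 times Smg9 in KO1 and 3.23 times in KO2, and with the longest protein-coding transcript as length at 4.14 and 1.95 times. Smg1 stood at 5.08 times Smg9 in KO1 and 1.95 times in KO2. Smg8 against Smg1 depended on the length used, at 1.35 times in KO1 and 1.65 times in KO2 with merged exons, and 0.873 and 1.07 times with the longest protein-coding transcript.

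Of the effectors, Smg5, an adaptor that binds phosphorylated UPF1, was at 84.6 TPM in KO1 and 103 TPM in KO2. Smg6, the endonuclease, was at 23.4 TPM in KO1 and 23.7 TPM in KO2. Smg5 lay above Smg6 in both libraries, at 3.61 times in KO1 and 4.35 times in KO2. The message of the adaptor thus lay above that of the endonuclease without overlap.

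In order of mean level the factors ran Smg5, Upf1, Upf2, Smg8, Upf3b, Smg1, Smg6, Upf3a and Smg9. The libraries of neighbours overlapped from Smg5 through Upf3b and between Upf3a and Smg9. They were apart between Upf3b and Smg1, between Smg1 and Smg6, and between Smg6 and Upf3a. With the longest protein-coding transcript as length, Smg5 stood apart at the top, Upf3b was next, and Upf3a lay above Smg6. With 2 libraries of 1 group there was no pattern over conditions by which to look for genes like these.

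For each gene the scaled count of KO2 was then divided by that of KO1, and the ratio was given an exact 95% interval, which covers counting error only. The rule counted a gene as differing when the whole interval lay beyond 2-fold. By it 0 of the 9 members differed, beside 1.06% of the 15619 genes with at least 50 counts in all, 0.98% higher in KO2 and 0.0768% lower. This compares 2 libraries and not conditions, so no p-value is given. At 1.5-fold 2 members differed, Smg9 and Upf1, both higher in KO2, beside 6.6% of genes in either direction, 6.4% higher in KO2 and 0.205% lower. The interval lay apart from a ratio of 1 for 7 of the 9, beside 65.5% of genes. Of these 4 were higher in KO2 (34.3% of genes) and 3 lower (31.2% of genes). Such intervals narrow as counts rise. The members had summed counts of 1728 (Smg9) to 33406 (Smg1), so these shares of genes are not at like depth.

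Smg9 was the nearest to the 2-fold rule, at 2.11-fold higher in KO2 (1.90 to 2.33), and its log2 ratio of 1.07 lay above that of 97.9% of genes. Upf1 was 1.61-fold higher in KO2 (1.55 to 1.67), Smg5 1.26-fold (1.22 to 1.29) and Upf3a 1.18-fold (1.10 to 1.26). On the other side, Upf2 was 1.27-fold higher in KO1 (1.23 to 1.32), Smg1 was 1.24-fold higher (1.21 to 1.26), and Upf3b was at a log2 ratio of -0.26 (-0.32 to -0.19). Smg6 at a log2 ratio of 0.06 (-0.01 to 0.13) and Smg8 at -0.01 (-0.08 to 0.06) had intervals that included 0. The median log2 ratio of the 9 was 0.06, beside 0.01 for all genes tested, so the members were spread around the middle of the table in both directions.

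**Figure D2:**
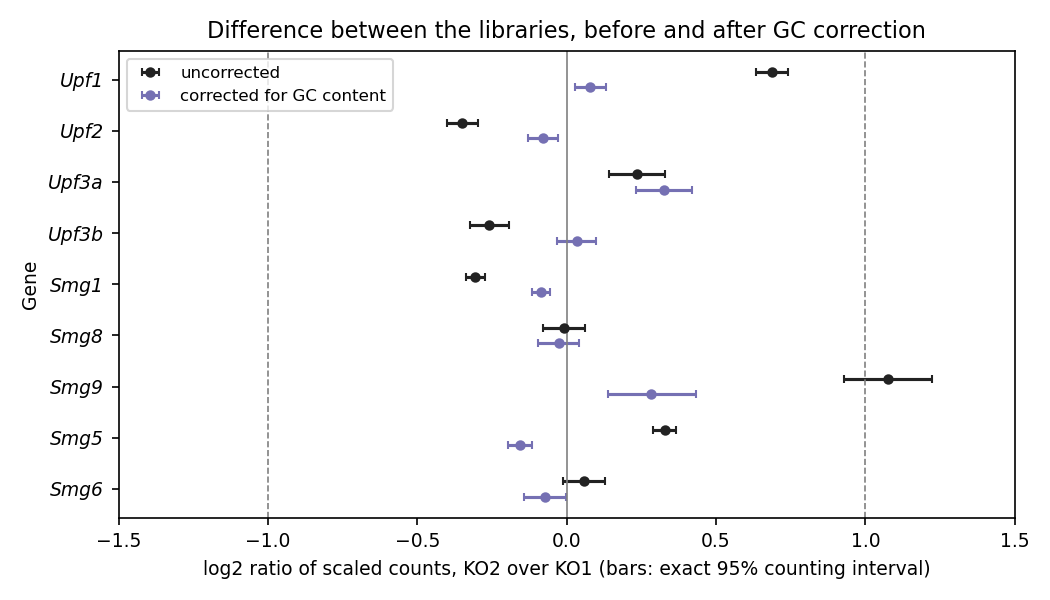
The log2 ratio of KO2 over KO1 for each decay factor, as points with exact 95% counting intervals, before (black) and after (purple) correction for transcript GC content. Dashed lines mark 2-fold. The uncorrected points run from -0.35 (Upf2) to 1.07 (Smg9), and the corrected ones from -0.16 (Smg5) to 0.33 (Upf3a).

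The direction of the members followed the GC content of their transcripts. Upf2, Upf3b and Smg1, which were higher in KO1, had the lowest GC content of the longest transcript, from 42.7% to 44.9%. Smg5, Upf1 and Smg9, the most different in the other direction, had the highest, at 56.5%, 57.9% and 60.3%. Across the 9 members the Spearman correlation of log2 ratio and GC content was 0.90, and across 15603 genes it was 0.811. Both describe the same pair of libraries, and genes are not independent replicates.

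Set beside genes of like composition, most members lay within the common range. Genes of 40 to 45% GC had a median log2 ratio of -0.29 (10th to 90th percentile -0.48 to -0.04, n = 2996), and Upf2, Upf3b and Smg1 stood at -0.35, -0.26 and -0.31. Genes of 50 to 55% GC had a median of 0.18 (-0.14 to 0.54, n = 4072), and Smg6 and Smg8 were below that median but inside the range. Genes of 55 to 60% GC had a median of 0.54 (0.18 to 0.93, n = 2809), with Upf1 above it at 0.69 and Smg5 below it at 0.33. For 60 to 65% GC the median was 0.86 (0.41 to 1.27, n = 544), with Smg9 at 1.07. The member outside its range was Upf3a, at 0.24 where genes of 45 to 50% GC ran from -0.35 to 0.20 (n = 4089). Its longest annotated transcript, at 48.1% GC, is one with a retained intron, whereas its coding transcript has 52.9%.

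**Figure D3:**
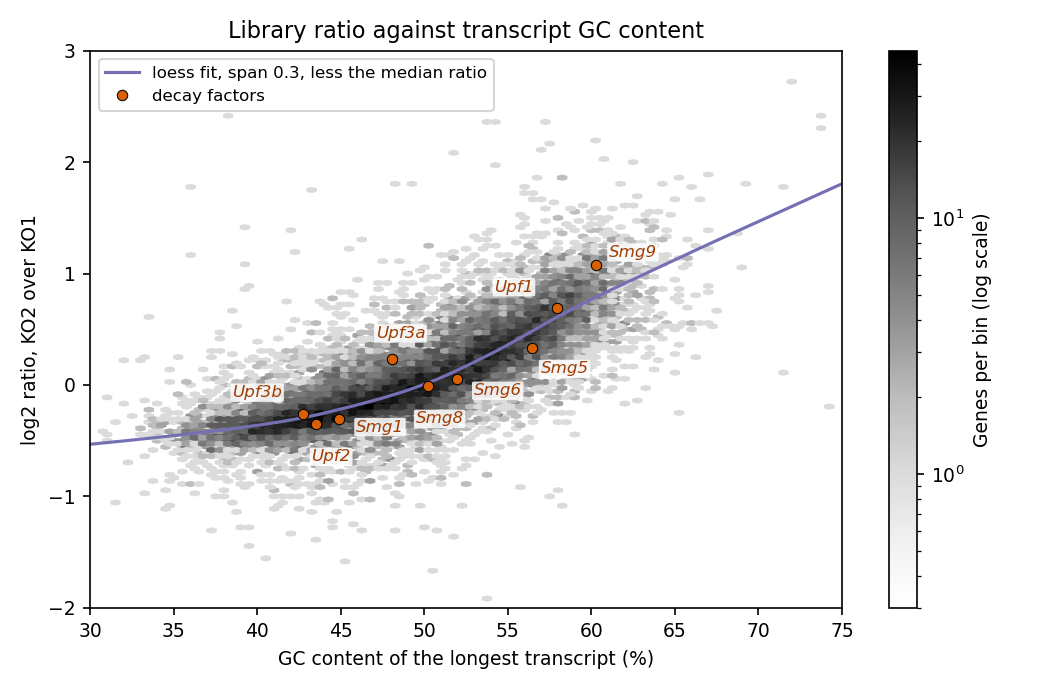
The log2 ratio of KO2 over KO1 against the GC content of the longest transcript in percent, for all genes tested (grey bins, darker for more genes) and the 9 decay factors (orange), with the loess fit in purple. Both axes leave out the few genes beyond their limits. The factors run along the cloud from Upf3b at 42.7% to Smg9 at 60.3%, with Upf3a above it.

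After a loess correction of the ratio for GC content, the range of the members' log2 ratios fell from 1.42 to 0.482. Again 0 of 9 differed by the 2-fold rule, beside 0.269% of genes, 0.173% higher in KO2 and 0.0961% lower. At 1.5-fold it was 0 of 9 too, beside 0.897% of genes, 0.641% higher and 0.256% lower. Intervals lay apart from a ratio of 1 for 7 of the 9, beside 39.9% of genes, with 3 higher in KO2 (21.2% of genes) and 4 lower (18.7% of genes). With the GC content of the longest protein-coding transcript it was 4 of 9, beside 42.3% of genes. Upf1, Upf3b and Smg9 were then higher in KO2 (26.6% of genes) and Smg5 lower (15.7% of genes). This second correction was not centred on 0, since Smg8, at 0.025 by it, lay above only 49.7% of genes. The lower bound of Upf3b, 0.024, was no higher than that, and the upper bound of Smg1, 5.69e-05, lay below it. Sides by this second correction thus partly carry that offset. By the longest transcript, the gap at Upf1 shrank to a log2 ratio of 0.08 (0.03 to 0.13), and that at Smg9 to 0.28 (0.14 to 0.43). Smg5 changed side, from 0.33 to -0.16 (-0.19 to -0.12), and Upf3b from -0.26 to 0.035, with an interval that included 0 (-0.03 to 0.10). Upf3a was at 0.33 (0.23 to 0.42), the largest ratio under this correction. With the GC content of the coding transcripts it was at 0.09 (-0.01 to 0.18), and Smg9 was largest at 0.32 (0.17 to 0.47). Ago1 was at -1.72 (-1.87 to -1.57) after the correction, against -1.67 before.

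The annotation of the members was also compared. The longest coding sequences ranged from 1266 bases in Upf3a to 10974 bases in Smg1, and the transcripts that carry them from 4 exons in Smg8 to 63 in Smg1. GENCODE annotates a transcript as a target of nonsense-mediated decay at 3 of the 9 genes, Smg1, Smg5 and Smg6, beside 28.8% of detected protein-coding genes. Transcripts with retained introns are annotated at 5 of the 9, beside 59.4%. Counts per gene do not separate these from productive transcripts. Exons under genes of the same strand made up 0% in all 9, and under genes of the opposite strand 1.47% in Upf1 and 2.87% in Smg6.

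Partners of the pathway were summarised by lists. As the background for their detection, 55.3% of protein-coding genes were detected, and 13347 of all 55421 genes in the table. As the background for their intervals, 34.3% of all genes were higher in KO2 and 31.2% higher in KO1. After correction by the GC content of the longest transcript it was 21.2% and 18.7%. By that of the longest protein-coding transcript it was 26.6% and 15.7% of the 13400 genes that have one. As that last correction was not centred on 0, sides of genes near 0 partly carry its offset. Intervals also narrow as counts rise, and the lists were not matched to all genes in depth. Of the adaptors and enzymes that carry out decay 7 of 7 were detected, from Dcp2, the decapping enzyme, at 132 ± 20.4 TPM (SD, n = 2) down to Dcp1b, a decapping cofactor, at 3.30 ± 0.633 TPM. Of these 2 had an interval on the side of KO2 and 3 on that of KO1. After correction by the longest transcript it was 3 and 1, and by the longest protein-coding transcript 6 and 1. All 7 genes of the exon junction complex and its cofactors were detected. Magoh, a core subunit, was highest at 559 ± 111 TPM, and its near-identical relative Magohb lowest at 8.68 ± 2.06 TPM. The treatment of reads shared by such copies was not given in the sources used here, and 30.2% of the Magohb exons lie under another gene of the same strand. In this list 4 were higher in KO2 and 2 in KO1, and 4 and 1 after the GC correction by the longest transcript. By the longest protein-coding transcript it was 4 and 0.

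All 6 genes of translation termination, cap binding and poly(A) binding were detected. They had the highest median of the lists, at 238 TPM, led by the poly(A)-binding protein gene Pabpc1 at 1922 ± 90.8 TPM. Gspt2, an intronless copy of the release factor gene Gspt1, was lowest at 18.1 ± 1.88 TPM. All 6 were higher in KO1 by their intervals, beside 31.2% of genes. The median of all genes tested was 13.7 TPM, so this share is not at like depth. Pabpc1, with 407002 counts in sum, had a log2 ratio of only -0.06 (-0.07 to -0.05). After the GC correction by the longest transcript 2 were higher in KO2, 2 in KO1 and 2 neither. By the longest protein-coding transcript it was 2, 3 and 1.

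Regulators of SMG1 and UPF1 were detected in 10 of 10 cases with a median of 24.2 TPM, from Ruvbl1, an ATPase that acts on SMG1 levels, at 395 ± 22.2 TPM down to the RNA-binding protein gene Stau2 at 3.74 ± 1.02 TPM. In this list 6 were higher in KO2 and 2 in KO1, and 5 and 2 after either GC correction. The kinases related to SMG1 had a median of 25.1 TPM. Mtor, the growth regulator, was at 37.6 ± 5.16 TPM and Atm, the double-strand break kinase, at 37.1 ± 8.0 TPM. Trrap, a pseudokinase of histone acetyltransferase complexes, was at 25.1 ± 4.84 TPM, Prkdc, the catalytic subunit of DNA-dependent protein kinase, at 22.5 ± 5.25 TPM and Atr, the replication stress kinase, at 17.1 ± 4.25 TPM. Smg1, at 43.0 ± 7.25 TPM, was above the mean of each of them. With merged exons its libraries overlapped those of Atm and Mtor and lay above those of Trrap, Prkdc and Atr. Divided by the longest protein-coding transcript, they overlapped those of Atr, at 33.1 ± 8.26 TPM, and lay above the other 4.

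**Figure D4:**
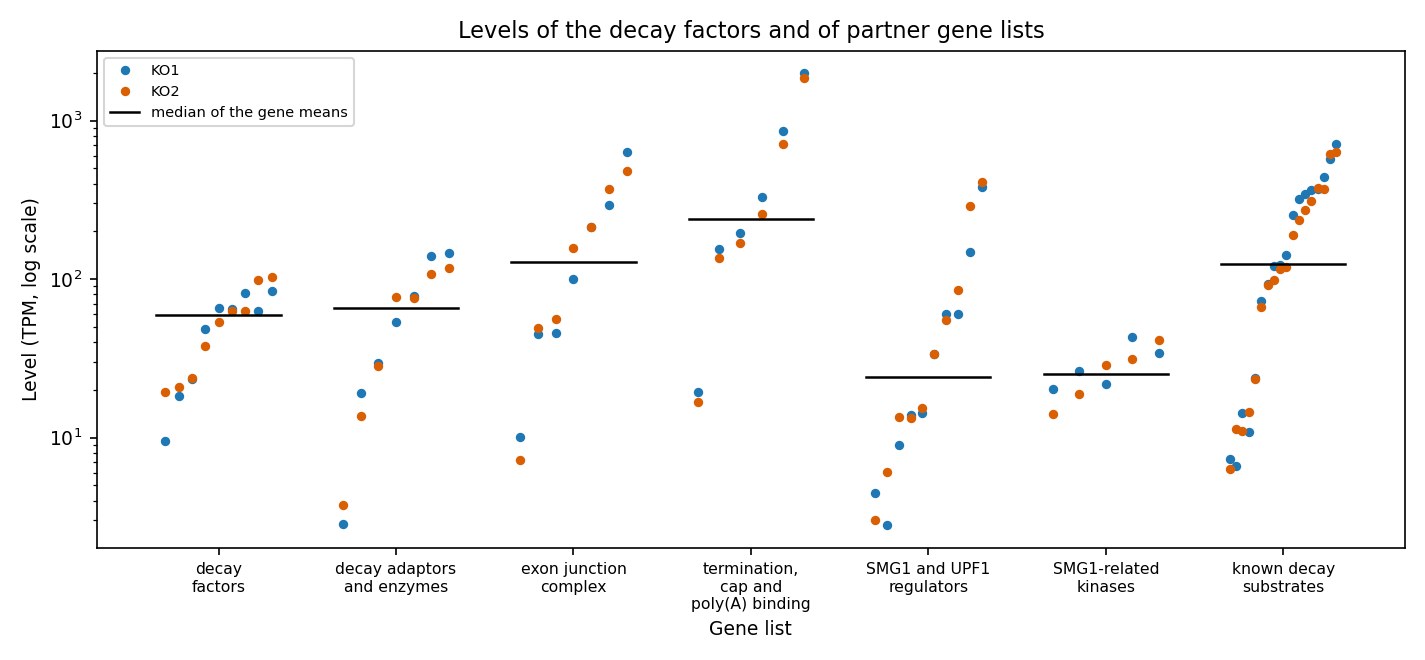
Levels in TPM on a log axis of the decay factors and of 6 lists of related genes, with a point per gene and library (KO1 blue, KO2 orange) and a line at the median of the gene means. The decay factors have a median of 59.5 TPM, between the SMG1 regulators at 24.2 TPM and the termination, cap and poly(A) list at 238 TPM.

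Genes with transcripts known as substrates of the pathway were detected in 18 of 18 cases, with a median of 125 TPM. Where only an isoform is the substrate, counts per gene do not separate it from productive transcripts. Srsf2, a splicing factor gene that limits itself through a decay-prone isoform, was highest at 672 ± 60.1 TPM. Atf3, a stress response factor, was lowest at 6.81 ± 0.695 TPM. Intervals placed 4 higher in KO2 and 10 in KO1, beside 34.3% and 31.2% of genes. After the correction by the longest transcript it was 7 each way, beside 21.2% and 18.7% of genes. By the longest protein-coding transcript it was 6 in KO2 and 3 in KO1, beside 26.6% and 15.7%. The latter counts leave out Gas5, Snhg1, Snhg12, Snhg15 and Zfas1, which have no coding transcript. By the longest transcript Gas5, Snhg15 and Zfas1 had been on the side of KO1 and the others of these on neither, so the corrections cover different genes. Srsf2 had 64365 counts in sum, and the median of all genes tested was 13.7 TPM beside the 125 TPM of this list. The shares of genes given here are therefore not at like depth, and the counts are not read as a trait of the list. None of the 18 differed by the 2-fold rule before correction, beside 1.06% of genes. Ddit3, another stress factor, chosen after its values were seen, had 184 counts in KO1 and 310 in KO2. It was at a log2 ratio of 0.81 (0.54 to 1.08) before and 1.00 (0.73 to 1.27) after the correction by its longest transcript, which has 45.6% GC. Its coding transcript has 55.4% GC, and with that the corrected ratio was 0.46 (0.20 to 0.74). Without a library of cells that keep Ago1 or of cells with blocked decay, these levels do not measure the activity of the pathway.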

How the data were processed

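Polyadenylated RNA of 2 Ago1 knockout samples was sequenced, with 1 ug of total RNA per library and a reverse-stranded protocol per the labels. The authors deposited raw whole-number counts for each Ensembl gene, on GRCm38 per the submitters' processing notes. Which aligner, counter, strand setting and annotation release they used was not given in the sources used here.

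Names, lengths, GC content and coding sequences came from GENCODE M21. Of the identifiers 181 were not found there and held 0.00416% of the counts. Counts were scaled with edgeR 4.0.16 (TMM factors 0.996 and 1.00) in R 4.3.3. A count of 0 allows up to 3 counts, or 0.0528 CPM in KO1 and 0.0549 CPM in KO2. Since PCR copies are not independent molecules, these limits and the intervals hold counting error alone. Ratios were log2 values with a prior count of 0.5 and exact conditional binomial (Clopper-Pearson) intervals at 95%. The GC correction was a loess fit (statsmodels 0.14.6, span 0.3) over genes with 50 or more counts in sum. The fit was taken less the median ratio of the genes fitted, so corrected ratios were not centred exactly on 0. The correction used the longest transcript or the protein-coding transcript with the longest coding sequence, called the longest protein-coding transcript throughout. With 1 group, no quasi-likelihood test was possible. Overlaps used bedtools 2.31.1, shared stretches blastn 2.17.0, other steps python 3.11.15 with numpy 2.4.6, scipy 1.17.1, pandas 2.3.3 and matplotlib 3.10.9. The ratio rule and the correction were also run on simulated counts with counting error alone, which leaves out other variation between libraries.

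The members and all lists were chosen with earlier results of these data known. Named genes were the 9 members, Ago1, the highest and lowest gene of each list, the SMG1-related kinases, any gene past the 2-fold rule and 1 further gene, which is not reported here. In the Argonaute list these were Ago2, at 123 ± 1.99 TPM (SD, n = 2), Ago4, at 0.289 ± 0.105 TPM, and Ago1. The symbol Ddit3 matched 2 identifiers, of which the one with reads was used. Alternatives were DESeq2 1.42.0 size factors, no TMM, other thresholds and filters, other lengths and each library alone.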

Additional observations from a re-analysis of the deposited data

How the results depend on the processing

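No paired analysis was possible because there is only 1 group. All 9 members were detected at thresholds of 0.5, 5 and 10 CPM, with other size factors and in each library alone. The count of 0 members past 2-fold was also 0 without TMM, with DESeq2 size factors (both came out as 1), without a filter, with a summed count of at least 200, at 3-fold, with either GC correction, and at 1.5-fold with the correction. It was 2 at 1.5-fold and 7 for intervals apart from a ratio of 1, and the latter was 7 with correction by the longest transcript and 4 by the longest protein-coding transcript. The corrected log2 ratio reversed for Upf3b, to 0.035 with the GC content of the longest transcript and 0.089 with that of the longest protein-coding transcript, and for Smg5, to -0.16 and -0.11. The interval counts after correction, 1.5-fold with correction, the corrections by the longest protein-coding transcript and the levels by that length or, for single members, by coding length were added after seeing the data. The median level of 58.1 TPM was 47.9 TPM with the longest transcript. On the scales without noncoding genes it was 42.3 TPM with the longest protein-coding transcript and 29.6 TPM with coding length. It was 62.5 TPM over protein-coding genes, 62.8 TPM without mitochondrial genes, and 53.4 to 62.9 TPM with each library alone. Single levels moved by over 1.5 times with the longest protein-coding transcript for Upf3a (to 37.0 TPM), Upf1 (to 53.5 TPM) and Smg8 (to 42.3 TPM). The lengths of Upf1 and Smg8 are the same as with merged exons, so these 2 moved through the scaling alone. With coding length, levels moved by over 1.5 times for Upf3a (to 30.4 TPM), Upf1 (to 37.2 TPM), Smg8 (to 23.1 TPM) and Upf2 (to 34.8 TPM). Ago1, at a mean of 17.3 CPM, was 8.27 CPM when KO1 was left out and 26.4 CPM when KO2 was. Depth limits little here, since the member with the fewest reads had 571 counts in the library where it was lowest.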
